A study of Mus musculus with 15 samples.

Results

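The miRNAs described here come from a group of hairpins on the mouse X chromosome known from male germ cells, called the X-linked germ cell cluster below. Its members were all mature miRNA names of the families miR-201, miR-463, miR-465, miR-470, miR-471, miR-547, miR-741, miR-742, miR-743, miR-871, miR-878, miR-880, miR-881 and miR-883, with any letter and either arm ending. Of the 1558 mature names with a read in the series, 36 were members. All 36 had a read in testis, some of them only 1 or 2, and 686 of the 1558 names had one. The names miR-465a-3p and miR-465b-3p had the same count in every library and were counted once, which left 35 counts to describe.

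The series holds 15 libraries of small RNA from mouse total RNA, with 1 library per tissue. They came from brain, spinal cord, eye, heart, lung, liver, kidney, spleen, stomach, smooth muscle, salivary gland, testis, and embryos of 11, 15 and 17 days. The 17-day embryo goes by its sample title, since its source field names a different day. The RNA was bought as a panel and no tissue was treated. The labels state neither strain nor age, nor how many animals gave each RNA. Because no tissue has a second library, no difference between tissues could be tested, and every interval below is an exact 95% interval for counting error only. Reads copied by PCR are not independent molecules, so these intervals are too narrow. The testis library was the shallowest, with 148052 counted reads against 922137 to 3161463 in the others, so that 3 reads stand for 20.3 CPM (read counts scaled to 1e6 miRNA reads of the library) in testis and 0.949 CPM in brain.

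A miRNA hairpin is cut into a short duplex, and either of its strands, called 5p and 3p after the side of the hairpin they come from, can be loaded into an Argonaute protein. The loaded strand finds messenger RNAs mainly through its seed, the bases 2 to 8 from its 5′ end. Neighbouring hairpins are often made from 1 transcript and are then called a cluster. The members belong to a fast-evolving family of X-linked miRNAs between the genes Slitrk2 and Fmr1 that is known mainly from testis. The X chromosome is silenced in male germ cells during meiosis, which is one reason why X-linked miRNAs of the testis have been studied.

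The RefSeq table of GRCm38.p6 holds 21 hairpins of these families, and it matched all 36 member names. All 21 lie on the minus strand of chromosome X and overlap no other gene in RefSeq or in GENCODE M21. Of these hairpins, 19 fill a block of 62369 bases at chrX:66776757-66839125, which starts 115363 bases beyond the end of Slitrk2. The remaining 2, Mir201 at chrX:67988096-67988161 and Mir547 at chrX:67988374-67988451, together span 356 bases and lie 1148970 bases away from the block. They are called the distal pair below.

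Mature sequences of the strands with at least 344 testis reads, and of miR-743a-5p for its shared seed, are shown 5′ to 3′ from RefSeq, with the seed in capitals. They are grouped into related strands, the 3p strands first, and the distal pair stands last.
miR-465a-3p, miR-465b-3p and miR-465c-3p: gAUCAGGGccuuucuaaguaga
miR-743a-3p: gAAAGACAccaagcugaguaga
miR-743b-3p: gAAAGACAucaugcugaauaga
miR-742-3p: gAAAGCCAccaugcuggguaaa
miR-883a-3p: uAACUGCAacagcucucaguau
miR-883b-3p: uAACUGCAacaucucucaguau
miR-881-3p: aACUGUGUcuuuucugaauaga
miR-741-3p: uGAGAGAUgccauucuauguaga
miR-880-3p: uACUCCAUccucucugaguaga
miR-878-3p: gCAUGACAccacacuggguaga
miR-871-3p: uGACUGGCaccauucuggauaau
miR-465a-5p: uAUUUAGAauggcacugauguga
miR-465c-5p: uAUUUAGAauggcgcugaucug
miR-743a-5p: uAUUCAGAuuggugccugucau
miR-871-5p: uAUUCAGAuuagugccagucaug
miR-470-5p: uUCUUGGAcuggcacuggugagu
miR-471-5p: uACGUAGUauagugcuuuucac
miR-201-5p: uACUCAGUaaggcauuguucuu
miR-547-3p: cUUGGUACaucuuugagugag

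The letters show features that the choice of members did not use. Of the 18 distinct 5p sequences, 13 began with UA, against 8.47% of 567 distinct 5p sequences among the other listed miRNAs. Of the 16 distinct 3p sequences, 8 ended in AGA, against 1.47% of 611 others. Both features were noticed in these sequences after they were read, and many hairpins of the block are alike in sequence, so the members are not independent cases. The 36 names had 29 distinct seeds. For 35 of the 36 names no miRNA outside the cluster in the RefSeq table had the same seed, the exception being miR-743b-5p, which shares it with miR-6948-5p. The like count was not made for other families, so it does not set the cluster apart.

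Within the families, positions are counted from 1 at the 5′ end. From miR-743a-3p to miR-743b-3p the changes are C9U, A12U and G18A, all outside the seed. The strands miR-883a-3p and miR-883b-3p differ only by G12U. From miR-743a-3p to miR-742-3p there are 4 changes, of which A6C falls in the seed. From miR-465a-5p to miR-465c-5p the changes are A14G and G20C, and miR-465a-5p is 1 base longer. By contrast, the 3p strands of miR-465a, miR-465b and miR-465c are the same 22 bases.

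In testis the cluster made up 18220 of 148052 counted miRNA reads, or 12.3% (95% interval 12.1 to 12.5). The totals of the libraries are sums over all names, so they hold both miR-465a-3p and miR-465b-3p, while the cluster counts them once. The highest share in any of the other 14 libraries was 0.0369% (0.0339 to 0.0401), in the 11-day embryo. In CPM these were 123065 in testis and 368.8 in that embryo, a ratio of 333.7. Against heart, the second of the other libraries by CPM, the ratio was 989.96. Which of these 2 libraries came next to testis depended on the scaling. TMM and DESeq2 size factors scale a library by the bulk of its miRNAs and not by its total. With TMM scaling the ratio was 372.2 against the 11-day embryo and 259.7 against heart, and with DESeq2 size factors 650.8 and 391.1, so that heart was the highest other library under both. In whole tissue, fewer cells that make a miRNA cannot be told apart from less of it per cell.

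The reads were spread over many members. Taken by name, miR-881-3p had the most reads in testis, with 1716 reads or 11590.5 CPM (11048.6 to 12152.2). It took 9.42% of the reads of the cluster. The shared miR-465 3p strand followed, listed at 1437 reads (9706 CPM, 9211 to 10221) under the names miR-465a-3p and miR-465b-3p and at 1431 reads under miR-465c-3p. Whether miR-465a-3p and miR-465c-3p list the same reads is not known. If their reads are separate, the shared strand had 2868 and stood above miR-881-3p. Next came miR-743a-3p with 1270 reads (8578 CPM, 8113 to 9063), miR-465c-5p with 1163 (7855 CPM, 7410 to 8320), miR-883a-3p with 1149 (7761 CPM, 7318 to 8223) and miR-741-3p with 1074 (7254 CPM, 6827 to 7701). With each name taken alone, the interval of miR-881-3p lay above that of every other member, and that of miR-465a-3p above that of miR-743a-3p. Each of the 4 strands from miR-743a-3p to miR-741-3p had an interval that overlapped that of its neighbour in this order. The 5 highest counts held 38.5% of the cluster and the 10 highest 64.1%, with the shared miR-465 3p strand included under both miR-465a-3p and miR-465c-3p.

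A middle group had between 622 and 874 reads. It held miR-743b-3p (874), miR-880-3p (796), miR-878-3p (763), miR-470-5p (750), miR-871-3p (698), miR-871-5p (682) and miR-201-5p (622). A lower group ran from 455 reads of miR-742-3p over miR-471-5p (441), miR-883b-3p (355), miR-547-3p (345), miR-465a-5p (344) and miR-471-3p (325) to miR-463-5p (261) and miR-470-3p (210). Then came miR-878-5p (187), miR-881-5p (177), miR-463-3p (173) and miR-741-5p (152). In all, 26 of the 35 counts reached 100 reads. Below that were the minor 5p strands miR-883a-5p (94 reads), miR-743a-5p (82), miR-742-5p (75), miR-743b-5p (72) and miR-883b-5p (29). The rarest names were miR-201-3p with 14 reads, miR-880-5p with 2, and miR-465d-5p and miR-547-5p with 1 each.

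**Figure D1:**
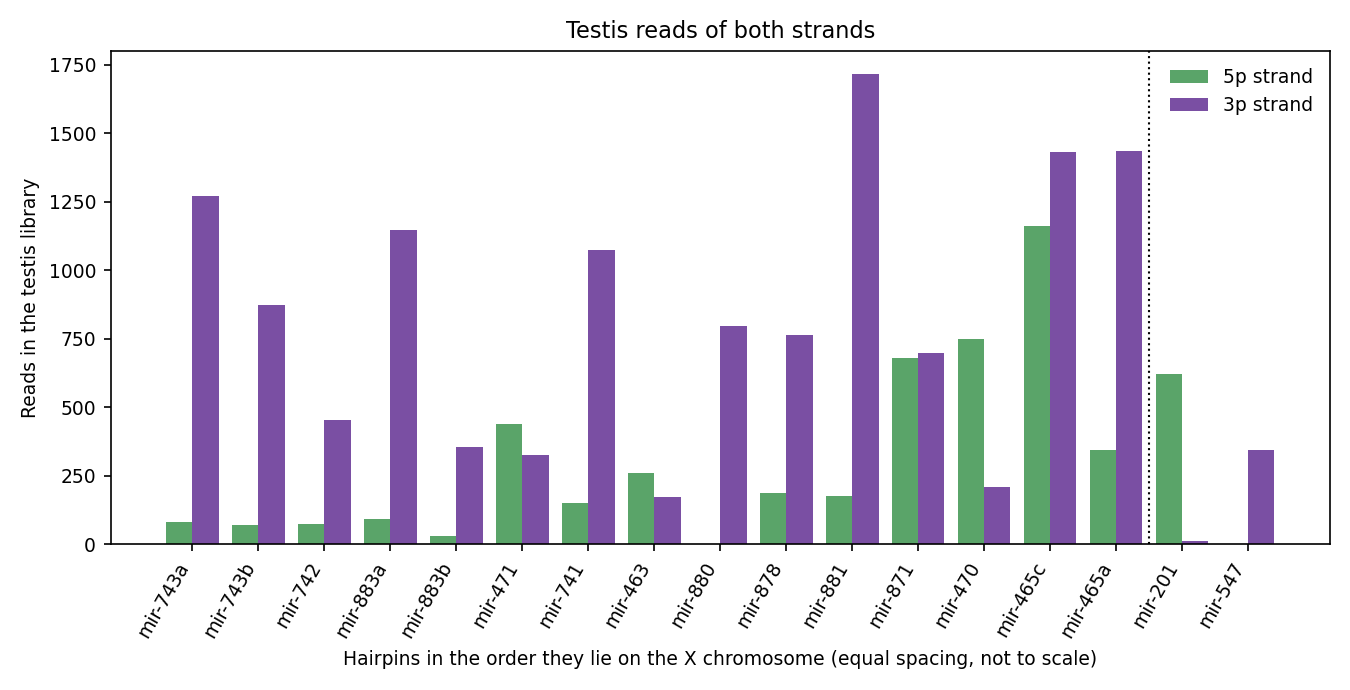
Reads of the 5p strand (green bars) and the 3p strand (purple bars) in the 1 testis library, for the 17 hairpins with both strands listed, in the order in which they lie on the X chromosome. The dotted line marks the gap between the block and the distal pair. The tallest bar is the 3p strand of mir-881 with 1716 reads. Reads of the shared miR-465 3p strand are listed for both mir-465a and mir-465c.

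Hairpins that lie close together differed in their reads. The hairpins mir-881 and mir-878 are 358 bases apart and had 1893 and 950 reads of both strands, a ratio of 1.99 (1.84 to 2.16). mir-880, 1336 bases from mir-881, had 798 reads. With 437 bases between them, mir-743a and mir-743b had 1352 and 946 reads, a ratio of 1.43 (1.31 to 1.55). The pair mir-883a and mir-883b, 9056 bases apart, had 1243 and 384 reads, a ratio of 3.24 (2.88 to 3.64). Each of these ratios lay beyond counting error, but the libraries cannot show how it would vary between animals.

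Because seeds are shared, reads can also be summed by seed. The seed AUCAGGG of the miR-465 3p strands had 2868 reads when miR-465a-3p and miR-465c-3p were both counted, or 15.7% of the cluster. This sum is uncertain, because the strands are the same sequence and the counts of the 2 names were equal in 13 of 15 libraries and 6 reads apart at most. The seed AAAGACA of miR-743a-3p and miR-743b-3p had 2144 reads (11.8%), and AACUGCA of miR-883a-3p and miR-883b-3p had 1504 (8.25%). The 5p seed AUUUAGA of miR-465 had 1508 reads (8.28%) over miR-465a-5p, miR-465c-5p and miR-465d-5p. The seed AUUCAGA joins 2 different hairpins, through miR-743a-5p and miR-871-5p, with 764 reads in all, of which miR-871-5p gave 682.

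Arm use in testis could be described for 17 hairpins with both strands listed and at least 20 reads. The 3p strand led in 12, the 5p strand in 4, and the interval of 1 took in 50%. Over all 203 hairpins with at least 20 testis reads, the 3p strand led in 42.9% and the 5p strand in 52.7%. Without mir-465a and mir-465c, whose 3p reads cannot be assigned to 1 hairpin, the counts were 10 and 4 of 15.

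The hairpins that leaned most to the 3p side were mir-880, with a 5p share of 0.251% (0.0304 to 0.902, 798 reads), and mir-547, with 0.289% (0.00732 to 1.60, 346 reads). Further hairpins followed at shares from 6.07% to 9.35%. These were mir-743a with 6.07% (4.85 to 7.47), mir-883b with 7.55% (5.12 to 10.7), mir-883a with 7.56% (6.15 to 9.18), mir-743b with 7.61% (6.002 to 9.49) and mir-881 with 9.35% (8.08 to 10.8). The intervals of the 2 mir-883 hairpins overlapped, as did those of the 2 mir-743 hairpins, although their reads differed. Those of mir-743a and mir-881 did not overlap. mir-741 had 12.4% (10.6 to 14.4), mir-742 had 14.2% (11.3 to 17.4) and mir-878 had 19.7% (17.2 to 22.4).

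Both strands were well represented in the middle of the range. mir-871 had 682 reads of 5p and 698 of 3p, a 5p share of 49.4% (46.7 to 52.1). mir-471 had 57.6% (54.0 to 61.1, 766 reads) and mir-463 had 60.1% (55.4 to 64.8, 434 reads). The 5p strand had most reads in mir-470, at 78.1% (75.4 to 80.7, 960 reads), and in mir-201, at 97.8% (96.3 to 98.8, 636 reads). Of the distal pair, mir-201 was thus read almost wholly from its 5p side and mir-547 from its 3p side. The minor strand had more than 5% of the reads in 14 of the 17 hairpins, and in 47.8% of all 203 hairpins. Its median share was 12.4% in the 17 and 4.55% in the 203.

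The hairpins at the ends and in the middle of this range are shown from RefSeq with both mature strands in capitals, the 5p strand first, all on the minus strand of chromosome X in GRCm38.p6.
Mir880, chrX:66800530-66800607: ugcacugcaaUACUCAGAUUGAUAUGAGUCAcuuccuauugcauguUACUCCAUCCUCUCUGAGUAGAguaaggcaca
Mir871, chrX:66810428-66810504: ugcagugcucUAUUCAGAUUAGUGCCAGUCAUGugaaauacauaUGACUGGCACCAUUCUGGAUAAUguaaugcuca
Mir201, chrX:67988096-67988161: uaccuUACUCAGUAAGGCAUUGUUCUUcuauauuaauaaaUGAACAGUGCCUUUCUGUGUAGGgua
Mir547, chrX:67988374-67988451: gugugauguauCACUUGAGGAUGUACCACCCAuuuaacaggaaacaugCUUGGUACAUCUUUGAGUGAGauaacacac

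For mir-465 the arm share depends on how the 3p reads are assigned. Taken by name, mir-465a had a 5p share of 19.3% (17.5 to 21.2) and mir-465c of 44.8% (42.9 to 46.8), both against nearly the same 3p reads. The name miR-465b-5p is not analysed here, and mir-465d is represented by 1 read of its 5p strand. The sequence of miR-465c-5p lies in 2 hairpins, Mir465c-1 and Mir465c-2, so its 1163 reads may come from either.

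**Figure D2:**
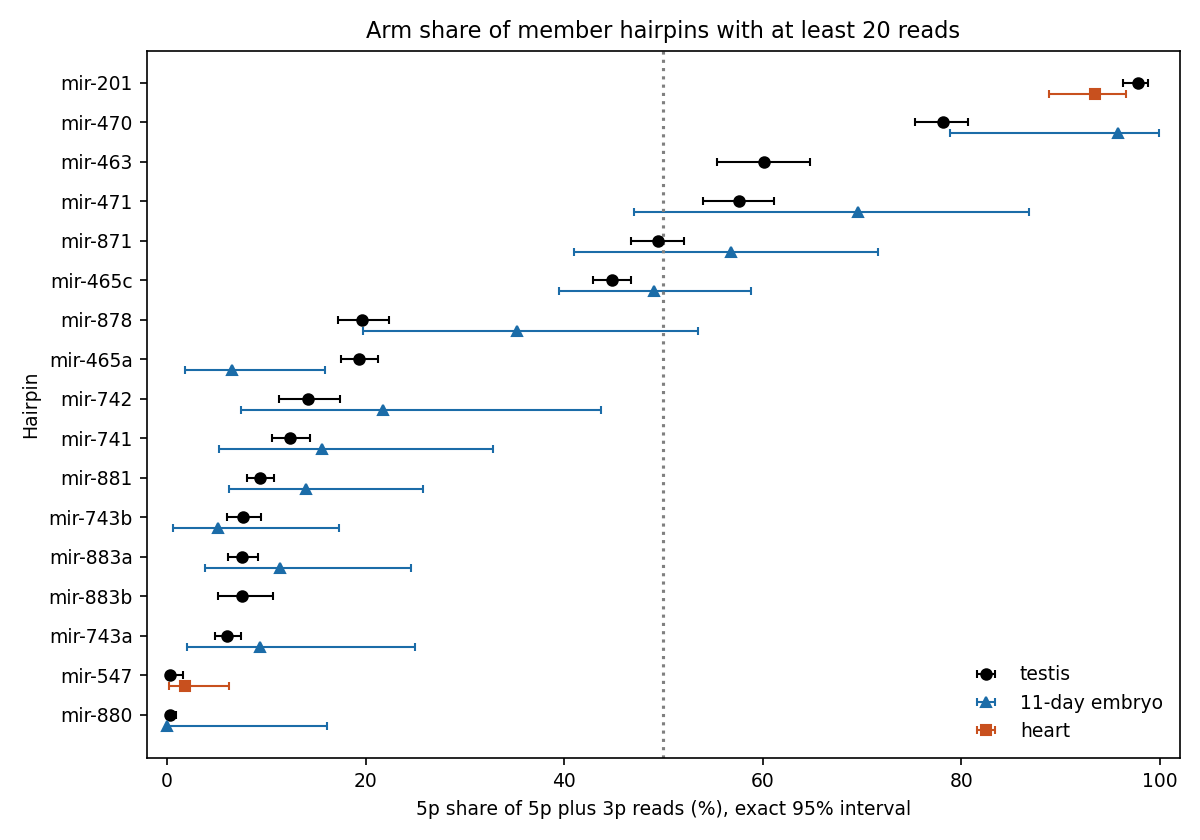
The 5p share of 5p plus 3p reads (x axis, percent) for each member hairpin (y axis), with exact 95% intervals as bars. Black circles are testis, blue triangles the 11-day embryo and orange squares heart, drawn where the library had at least 20 reads of the hairpin. Shares in testis ran from 0.251% for mir-880 to 97.8% for mir-201, and the dotted line marks 50%.

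Outside testis the members left few reads. All 35 counts had their highest CPM in testis, though 3 of them rest on 1 or 2 testis reads. The same count was not made over all names, and 1 testis read already stands for 6.75 CPM. Of the 31 with at least 20 testis reads, 31 had a testis CPM at least 10 times that of every other library, where fewer than 3 reads were taken as 3. Among all 296 names with at least 20 testis reads this held for 22% and among the 265 that are no members for 12.8%. The median ratio of testis to the highest other library was 280.2 in the 31 members and 0.493 over all 296 names. The need for 20 testis reads favours names that are high there, so these values are descriptions. The 4 below 20 reads were miR-201-3p, at 94.6 CPM in testis and 4.58 in heart (12 reads), miR-547-5p, with 1 testis read and 2 in heart, and miR-465d-5p and miR-880-5p, which had no read elsewhere.

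The other 14 libraries held 1329 reads of the cluster in all (interval 1259 to 1402), or 44.7 CPM of their summed reads. Of these, 41.8% were in the 11-day embryo and 24.5% in heart. The 2 libraries differed in which members they held. The 11-day embryo had 554 reads of the block and 1 of the distal pair, whereas heart had 29 of the block and 297 of the distal pair.

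**Figure D3:**
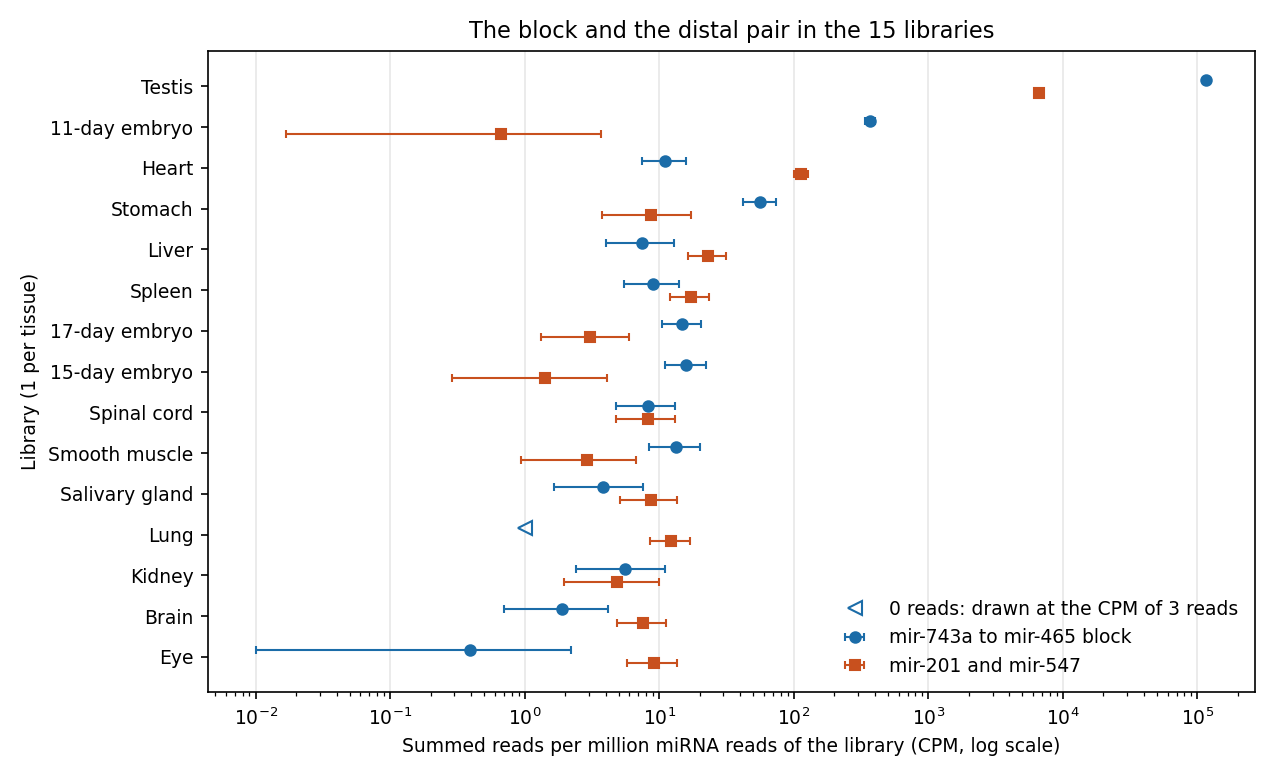
Summed CPM (x axis, log scale) of the block from mir-743a to mir-465 (blue circles) and of mir-201 and mir-547 (orange squares) in the 15 libraries (y axis), with exact 95% intervals for counting error. Lung had 0 reads of the block and is drawn at the CPM of 3 reads. Testis stands at 116432 and 6633 CPM. The 11-day embryo is next for the block at 368.1 CPM, and heart is next for the distal pair at 113.3 CPM.

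In the 11-day embryo the block stood at 368.1 CPM (338.1 to 400.1), against 116432 in testis. It was 15.9 CPM (11.0 to 22.2, 34 reads) in the 15-day and 14.9 CPM (10.6 to 20.3, 39 reads) in the 17-day embryo. The block of the 11-day library was therefore 23.1 and 24.8 times as high as in the later stages, with intervals that did not overlap. A read was found for 28 of the 31 counts of the block, and for 1108 of all 1558 names. For 28 of all 35 counts this library was the highest outside testis (24 with TMM scaling or DESeq2 size factors). That count was not made over all names, and some of the 28 rest on few reads, such as miR-470-3p with 1. The strands with most reads were miR-465a-3p with 57, miR-465c-3p with 56, miR-465c-5p with 54, miR-881-3p with 49, miR-883a-3p with 39 and miR-743b-3p with 37. The distal pair had 1 read of miR-201-5p and 0 of miR-547-3p, where 3 reads would stand for 1.99 CPM.

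The block had a broadly similar make-up in the 2 libraries, but not every share matched within counting error. For 26 of 31 counts the share of block reads in testis lay inside the interval of the share in the 11-day embryo, which rests on 554 reads. Among these, miR-883b-5p, miR-880-5p and miR-465d-5p had 0 reads in the embryo. Their interval of 0 to 0.664% could not exclude their small testis shares. The shared strand of miR-465a-3p and miR-465c-3p is also counted under both names. Across the 31 counts the reads of the libraries had a Pearson r of 0.88 on the log2 scale after adding 1, and a Spearman rho of 0.92. Strands of the same hairpin and of related sequence are among these points, so r and rho are descriptions. For miR-465a-5p and miR-878-5p the testis share lay outside the interval of the embryo, though the intervals overlapped. For 3 counts the intervals lay apart. In testis miR-465c-5p took 6.75% of the block (6.38 to 7.13), and in the 11-day library 9.75% (7.41 to 12.5). miR-883b-3p took 2.06% (1.85 to 2.28) and 0.542% (0.112 to 1.57), the latter from 3 reads, and miR-470-3p 1.22% (1.06 to 1.39) and 0.181% (0.00457 to 1.002), from 1 read.

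**Figure D4:**
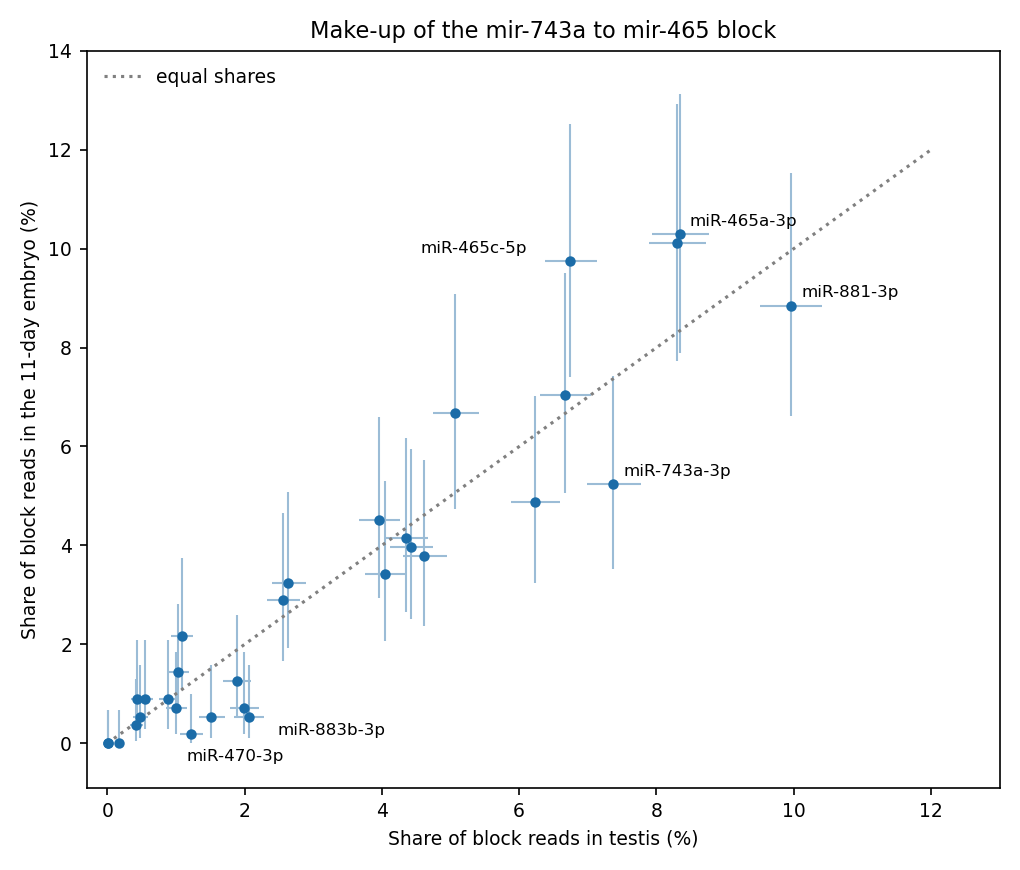
Share of each count in the reads of the block, in testis (x axis, percent) and in the 11-day embryo (y axis, percent), with exact 95% intervals as bars. Each point is 1 of 31 counts and the dotted line marks equal shares. miR-881-3p lies near the line at 9.95% and 8.84%, while miR-465c-5p lies above it and miR-883b-3p and miR-470-3p below it.

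Arm shares in the 11-day embryo rested on 21 to 110 reads per hairpin and could be given for 13 hairpins. The 5p share was 15.6% for mir-741 (5.28 to 32.8), 9.38% for mir-743a (1.98 to 25.0), 56.8% for mir-871 (41.0 to 71.7) and 95.8% for mir-470 (78.9 to 99.9, 24 reads). For mir-465a, at 6.56% (1.82 to 15.9), the interval lay below that of testis, though its 3p reads are shared. For the other 12 hairpins the interval overlapped that of testis, which does not show that the shares are equal. For mir-470 and mir-878 the testis share, 78.1% and 19.68%, lay just below the embryo interval, which began at 78.9% and 19.75%. Summed over the 13 hairpins of the block outside mir-465, the 11-day embryo had a 5p share of 27.9% (23.5 to 32.7) and testis one of 23.4% (22.6 to 24.1). These intervals overlapped, but the testis share lay just below the interval of the embryo.

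The distal pair is described by its 2 main strands. miR-201-5p had a read in all 15 libraries. It stood at 4201 CPM in testis (3878 to 4545) and 65.6 CPM in heart (56.2 to 76.2, 172 reads), a ratio of 64.1 that came to 16.8 with TMM scaling and 25.3 with DESeq2 size factors. Heart was 4.38 times the next library, liver, at 15.0 CPM (9.78 to 21.9, 26 reads), and spleen followed at 12.1 CPM (8.01 to 17.7, 27 reads). Lung had 7.41 CPM, stomach 6.51, eye 5.92, brain 5.06, spinal cord 3.37, salivary gland 2.88, the 17-day embryo 2.29, kidney 1.39, smooth muscle 1.16, the 15-day embryo 0.937 and the 11-day embryo 0.664. From lung downward these values rest on 1 to 22 reads, and the interval of each took in the value of its neighbour in this order.

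Its neighbour miR-547-3p had a like order at the top. It stood at 2330 CPM in testis (2091 to 2590, 345 reads) and 42.3 CPM in heart (34.8 to 51.0, 111 reads), a ratio of 55.1, or 14.4 with TMM scaling and 21.7 with DESeq2 size factors. Liver was next at 6.91 CPM (3.57 to 12.1, 12 reads), so that heart was 6.12 times as high. Salivary gland had 5.28 CPM, spleen 4.95, spinal cord 4.81, lung 4.04, eye 3.15, kidney 2.78, brain 2.21, stomach 2.17, smooth muscle 1.74, the 17-day embryo 0.762 and the 15-day embryo 0.468. These 11 values rest on 1 to 12 reads each. The leading strands in heart were those of testis, with a 5p share of 93.5% for mir-201 (88.9 to 96.6, 184 reads) and 1.77% for mir-547 (0.215 to 6.25, 113 reads). For mir-201 the testis share, 97.8%, lay above the heart interval, though the intervals overlapped. The 5p strand of mir-201 also led in liver (92.9% of 28 reads), lung (91.7% of 24) and spleen (100% of 27).

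The share of the distal pair in the reads of the cluster set the libraries apart. In testis it was 5.39% (5.07 to 5.73), against 0.180% in the 11-day embryo (0.00456 to 0.9998). In heart it was 91.1% (87.5 to 94.0), in lung 100% of 36 reads (90.3 to 100), in eye 95.8% of 24 (78.9 to 99.9), in brain 80.0% of 30 (61.4 to 92.3) and in liver 75.5% of 53 (61.7 to 86.2). Salivary gland with 69.2%, spleen with 65.5%, spinal cord with 50% and kidney with 46.7% lay lower. Stomach with 13.3% (5.94 to 24.6), smooth muscle (17.9%) and the embryos of 17 days (17.0%) and 15 days (8.11%) held mostly reads of the block. The interval of the 15-day embryo (1.70 to 21.9) took in the value of testis. The interval of each of the other 13 libraries lay apart from that of testis, below it in the 11-day embryo and above it in the rest, by little in stomach, smooth muscle (6.06 to 36.9) and the 17-day embryo (7.65 to 30.8).

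Reads of the block were few in the remaining tissues. Stomach was the highest of them, with 52 reads or 56.4 CPM (42.1 to 73.9) over 19 of 31 counts. Of all 1558 names, 813 had a read in stomach. The block reads there were led by miR-465a-3p and miR-465c-3p with 7 reads each and miR-743a-3p with 6. The others were below 17 CPM. Smooth muscle had 13.3 CPM (23 reads), heart 11.1 (29), spleen 8.999 (20), spinal cord 8.18 (17), liver 7.49 (13), kidney 5.57 (8), salivary gland 3.84 (8), brain 1.90 (6) and eye 0.394 (1). Lung, with 2970264 reads, had 0 of the block, where 3 reads would stand for 1.01 CPM. In heart the 29 reads fell on 15 counts with at most 4 reads each.

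Other miRNAs of the testis were set beside the cluster. The ciliated and germ cell miRNA miR-34c-5p had 48645 CPM in testis and 3270 in lung, and miR-34b-5p had 15717.5 and 1762. For miR-34c-5p testis held 90.5% of the CPM summed over the 15 libraries, for miR-449a-5p 83.4% and for miR-449c-5p 36.5%. The gonadal miR-202-5p had 30530 CPM in testis and at most 48.2, in the 15-day embryo, with testis holding 99.5%. Among the members that share was between 99.2% and 99.9% for the 29 block counts with at least 20 testis reads, and 97.0% and 96.6% for miR-201-5p and miR-547-3p.

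In the 11-day embryo miR-202-5p stood at 19.9 CPM (30 reads) and miR-34c-5p at 233.9 CPM (352 reads), where the block stood at 368.1 CPM. In heart, miR-202-5p had 1 read and miR-34c-5p had 77. The 5 non-members with the highest share held in testis, among those with at least 100 testis reads, were miR-7210-3p (246 reads), miR-7234-3p (215), miR-7233-3p (200), miR-7229-5p (126) and miR-7241-5p (116). None of the 5 had a read in any other library, the 11-day embryo and heart included. They were chosen by that share, so it is a description.

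Markers of other cells were present in the testis library. The smooth muscle list of miR-143-3p and miR-145a-5p summed to 54602 CPM, against 6480 to 264929 in the other libraries, and the erythroid list of 3 names to 17379 CPM (4713 to 122804 elsewhere). The leukocyte list of 3 names summed to 5194 CPM (622.8 to 231547) and the endothelial list of 2 names to 9132 CPM (6502 to 89149). All members of each list had testis reads. The germ cell list of miR-34c-5p, miR-34b-5p, miR-34b-3p and miR-449a-5p summed to 89698 CPM in testis (27.8 to 6008 elsewhere, highest in lung). It had 588.0 CPM in the 11-day embryo and 48.8 in heart. The part of these cells in the levels of the cluster was not tested.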

How the data were processed

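Small RNA was sequenced from 15 mouse tissue RNAs, 1 library each. The authors deposited read counts per mature miRNA, not normalized. The submitters' processing notes name bcl2fastq 1.8.4, cutadapt, BWA, bedtools and the mm10 genome. Options, the miRNA annotation release and the treatment of reads that fit several hairpins are not stated in the labels or file headers. From the deposited counts, CPM was computed over all 1558 names of a library, counting miR-465a-3p and miR-465b-3p once among the members. Shares have exact Clopper-Pearson and counts exact Poisson 95% intervals (Python 3.11.15, scipy 1.17.1, pandas 2.3.3). Scaling factors for alternatives came from edgeR 4.0.16 (TMM) and DESeq2 1.42.0 in R 4.3.3, with no test from either. The computations were tested on simulated data. Fewer than 3 reads in another library were taken as 3 when a fold was computed. Arm shares needed 20 reads of a hairpin. Members with at least 100 testis reads, both arms of hairpins with at least 20, members with 3 or more reads in another library, and the 5 other names with at least 100 testis reads and the highest testis share of summed CPM were to be named. Sequences, positions and neighbours came from RefSeq for GRCm38.p6, and gene overlap also from GENCODE M21. The members and lists were chosen with earlier results of these data known. With 1 library per tissue, no test between tissues was made.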

Additional observations from a re-analysis of the deposited data

How the results depend on the processing

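No paired analysis was possible because each tissue has 1 library and no comparison comes from a test. Of 51 alternative values, 30 stayed within a set bound. The bound was the counting interval, or 1.5 times for numbers of members or hairpins and for ratios between 2 named libraries. The 51 are not all distinct, since the testis to heart ratio of the cluster under each scaling is listed under 2 results. The number of members could not move at 5-fold or 30-fold, since their lowest ratio was 55.1. With every name counted separately, the cluster had 13.3% of testis reads, at most 0.0407% elsewhere and 1407 reads outside testis. With the reads outside the cluster as denominator, its level was 14.2% in testis and the ratio of testis to the highest other library 384.7. That ratio was 259.7 with TMM scaling and 391.1 with DESeq2 size factors, where the highest other library was heart and no longer the 11-day embryo. Relative to CPM, these scalings shifted every testis to heart ratio by -1.93 and -1.34 on the log2 scale, and every testis to 11-day embryo ratio by 0.16 and 0.96. All 35 counts were still highest in testis. The ratios between named libraries under these scalings, the counting of identical sequences once, and the values without a library or without mir-465 were chosen after seeing the data. With names of identical sequence counted once, which takes miR-465c-3p out, the values were 11.3%, 0.0332% and 1252 reads. Without the 11-day embryo, the highest other share was 0.0124%, the ratio 989.96 and the reads outside testis 774, and without heart these reads were 1003. These shifts follow from what each alternative counts or leaves out. For the scalings the cause was not tested. Depth limits testis most: 3 reads stand for 20.3 CPM there, and strands with fewer reads cannot be placed.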
